A study of Homo sapiens with 12 samples.

Results

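The cell cycle and proliferation genes were a list of 47 human genes chosen by symbol, from proliferation markers and G1 cyclins to the mitotic kinases and the spindle checkpoint. Their probes were taken where the signal was detected (detection p under 0.05) on at least 4 of the 12 arrays. Of the 47, 46 had a probe named in the platform annotation and 43 passed the detection filter, among 10891 genes measured in all. CDKN2C, which encodes the CDK4 and CDK6 inhibitor p18, had no probe named for it.

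The arrays, of the Illumina HT-12 v4 type, were hybridised with RNA from Huh7, a hepatoma-derived human cell line grown here in 24-well plates. In the human ERFE group (4 arrays) the cells received recombinant human erythroferrone at 10 µg/ml for 24 h, and in the mouse ERFE group (4 arrays) recombinant mouse erythroferrone at that dose and time. The untreated group (4 arrays) had neither protein and was labelled with that time. No array of the study was labelled as given vehicle or a protein without ERFE activity, so ERFE activity and the addition of a protein cannot be told apart. All 3 groups shared the line and its medium, and the labels do not say whether arrays of a group came from separate experiments, so p-values measure the spread between these samples only. The titles of 2 mouse ERFE arrays both say replicate 3, and these arrays are called 3-A4 and 3-B4 here after their title codes. They may come from the same culture, which the labels do not settle and which was not tested. They were counted as separate arrays, so p-values with mouse ERFE may rest on fewer independent samples than 4. The SD between them was 0.291, rank 2 from the lowest of 18 pairs within groups (0.288 to 0.404). Their deviations correlated at 0.10, and those of the other pairs within groups correlated negatively. Deviations were taken from the mean of the group, which itself pulls correlations within a group below 0.

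Erythroferrone is a hormone of red cell precursors that binds bone morphogenetic proteins (BMPs) and lowers hepcidin in liver cells. BMP signals raise the ID genes, whose products lack a DNA-binding domain and hold E proteins away from E-box sequences in promoters. E proteins can activate CDKN1A, the gene of the cyclin-dependent kinase (CDK) inhibitor p21, and ID proteins are known for favouring proliferation in many cell types. In the cell cycle itself, D-type cyclins with CDK4 or CDK6 phosphorylate the retinoblastoma protein RB, which frees E2F factors to switch on genes of DNA replication. CDC6 and CDT1 load the MCM2 to MCM7 helicase on replication origins. Later in the cycle FOXM1 and MYBL2 drive genes of mitosis, among them the B-type cyclins, CDK1, PLK1 and the Aurora kinases. The question was whether the lower ID expression went with a change of these genes.

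The promoters of 4 members are shown because the values below turn on them: MCM3 had the smallest p of all members, MCM2 is a helicase partner of it, and CDKN1A and RRM2 had the largest differences with mouse ERFE. Each runs from 250 bases before to 50 bases after the annotated start of the gene, 5′ to 3′ on the gene's strand, from RefSeq (GRCh38.p14). Capitals mark E2F-type matches (TTNNCGC, with C or G at each N), E-box matches of the kind E proteins prefer (CANCTG, with C or G at N) and CCAAT boxes, on either strand. MCM3 lies on the minus strand at chr6:52284693-52284992, MCM2 on the plus strand at chr3:127598161-127598460, RRM2 on the plus strand at chr2:10122489-10122788 (the first listed of 2 starts) and CDKN1A on the plus strand at chr6:36678464-36678763.
MCM3: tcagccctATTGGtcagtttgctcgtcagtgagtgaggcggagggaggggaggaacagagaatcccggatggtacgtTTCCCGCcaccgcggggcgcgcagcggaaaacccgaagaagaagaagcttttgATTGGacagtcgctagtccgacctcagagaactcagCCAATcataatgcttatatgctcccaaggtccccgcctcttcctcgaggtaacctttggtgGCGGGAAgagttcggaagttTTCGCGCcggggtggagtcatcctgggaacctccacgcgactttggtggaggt
MCM2: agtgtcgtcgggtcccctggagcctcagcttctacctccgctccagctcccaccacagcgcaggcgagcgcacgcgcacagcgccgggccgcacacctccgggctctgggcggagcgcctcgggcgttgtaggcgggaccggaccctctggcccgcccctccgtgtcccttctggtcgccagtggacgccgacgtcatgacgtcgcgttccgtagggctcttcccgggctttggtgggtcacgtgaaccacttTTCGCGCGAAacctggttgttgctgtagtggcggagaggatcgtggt
RRM2: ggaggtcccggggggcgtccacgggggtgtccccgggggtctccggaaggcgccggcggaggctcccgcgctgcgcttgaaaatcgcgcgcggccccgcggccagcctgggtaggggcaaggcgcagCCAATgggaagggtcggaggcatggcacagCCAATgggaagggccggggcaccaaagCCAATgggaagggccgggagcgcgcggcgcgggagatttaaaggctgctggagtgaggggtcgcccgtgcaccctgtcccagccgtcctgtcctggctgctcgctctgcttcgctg
CDKN1A: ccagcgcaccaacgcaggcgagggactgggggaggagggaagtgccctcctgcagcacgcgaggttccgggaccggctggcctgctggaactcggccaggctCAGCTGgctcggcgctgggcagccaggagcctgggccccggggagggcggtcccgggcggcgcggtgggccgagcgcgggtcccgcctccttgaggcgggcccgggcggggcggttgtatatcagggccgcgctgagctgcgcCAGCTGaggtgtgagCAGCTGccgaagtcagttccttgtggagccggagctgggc

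The MCM3 window held 3 E2F-type matches, which began at positions -173, -23 and -3 from the start site, and 3 CCAAT boxes. The MCM2 window held 2 E2F-type matches that overlapped each other just after the start site. The RRM2 window held 3 CCAAT boxes and 0 E2F-type matches, and the CDKN1A window held 3 E-boxes, at -148, -5 and 11. No match of 1 kind overlapped a match of another in these windows. A RefSeq promoter was listed for 34 of the 43 members and not for FOXM1, CDKN1C, MCM4, MCM5, AURKA, TTK, BIRC5, CDK2 and CCND1. With the first listed start of each member, E2F-type matches were in 44.1% of the 34 member windows. They were in 13% of all 35116 listed windows. That set takes in every listed start of a gene, measured here or not, so the 2 sets are unlike. CCAAT boxes were in 55.9% of the member windows and 34.6% of all. The cell cycle homology region (TTNGAA, with T or C at N), an element of mitotic genes, was in 26.5% of the member windows and 16.4% of all. The E-boxes were in 35.3% and 34.5%. These letter matches are a description and not binding sites shown here.

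Of the listed genes, MKI67, CCND2 and CCNE2 were detected on 0 of 12 arrays. Their raw signals lay between 113 and 184, close to the median signal of an array (139.5 to 186.3), so no level of the proliferation marker Ki-67 could be given. MYBL2 was detected on 9 of 12 arrays (4 human ERFE, 2 mouse ERFE and 3 untreated), and the other 42 members were detected on all 12. The arrays detected 34.5% to 39.1% of their probes. All 8 hepatoma markers, among them AFP and ALB, were detected on all 12 arrays. Transcripts of 5 MHC class II pathway genes (HLA-DRA, HLA-DPA1, HLA-DMA, HLA-DMB and CD74) averaged 7.84 to 9.18 log2 signal on 6 arrays and 5.66 to 6.62 on the other arrays. The high arrays were human ERFE replicates 1 and 3, mouse ERFE replicate 1 and untreated replicates 1, 2 and 3. Of the 14 leukocyte markers listed, 8 passed the detection filter, and among those that did not were PTPRC, CD3E, CIITA, HLA-DPB1 and HLA-DQA1. The linear signals of those 8 summed to 14230 to 16310 on human ERFE arrays, 13510 to 16260 on mouse ERFE arrays and 13910 to 17730 on untreated arrays. LYZ made up most of each sum, at 13.41 to 13.80 log2 signal, where none of the others exceeded 11.03 (HLA-DRA). The sums therefore say little about the other markers. Of the 8, LYZ was higher with either protein (0.18 with human ERFE and 0.09 with mouse ERFE) and the others were lower. Their median log2 fold change was -0.49 and -0.35, with the lowest at -1.21 (CD74, human ERFE) and -2.01 (HLA-DPA1, mouse ERFE). None of the 8 passed an adjusted p of 0.05. CD14, a monocyte marker, had the smallest p, at -0.30 with human ERFE and -0.31 with mouse ERFE (limma, adjusted p = 0.426 and 0.210).

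ID1 and ID3 fell with either protein, and ID2 fell with human ERFE. ID1 had 12.37, 12.29, 12.04 and 12.40 log2 signal on the human ERFE arrays, 12.36, 12.22, 12.43 and 12.48 on the mouse ERFE arrays, and 12.95, 12.97, 13.06 and 13.13 on the untreated arrays (in the order of replicates 1 to 4, with 3-A4 before 3-B4 for mouse ERFE, here and below). Every ERFE array lay below every untreated array for ID1, ID2 and ID3. With human ERFE the log2 fold changes of ID3, ID1 and ID2 were -1.01, -0.75 and -0.70 (limma, adjusted p = 0.00260, 0.00416 and 0.0166). With mouse ERFE ID3 and ID1 fell by 0.84 and 0.66 on the log2 scale (limma, adjusted p = 0.0102 and 0.0126), while the -0.56 of ID2 had an adjusted p of 0.0605. A second ID2 probe, detected on all 12 arrays, gave -0.74 with human ERFE and -0.66 with mouse ERFE (limma over probes, adjusted p = 0.00782 and 0.0187). On it every ERFE array also lay below every untreated array. A dim second ID1 probe, detected on 5 arrays, gave -0.72 and -0.30 (limma over probes, adjusted p = 0.0597 and 0.395). Its mouse ERFE and untreated arrays overlapped. ID4 was detected on 0 of 12 arrays. Against untreated cells, the log2 fold changes of ID1, ID2 and ID3 kept their direction in all 26 alternatives, but the calls did not hold in all of them. With human ERFE, ID1 passed in 23, ID3 in 24 and ID2 in 17 of 26. With mouse ERFE, ID3 passed in 24, ID1 in 21 and ID2 in 6. With the number in the title code as a block none of them passed (limma, adjusted p = 0.0612, 0.0609 and 0.151 for ID1, ID3 and ID2 with human ERFE, and 0.0883 each for ID1 and ID3 with mouse ERFE). Without the 6 arrays high in MHC class II transcripts, which leaves 1 untreated array, none passed either, with ID1 at -0.79 and ID3 at -1.11 for human ERFE (limma, adjusted p = 0.964 each). Single arrays decided the call of ID2 with human ERFE (not passed without human ERFE replicate 3 or 4, or untreated replicate 2 or 3) and of ID1 with mouse ERFE (not passed without untreated replicate 3).

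None of the 43 cell cycle genes passed an adjusted p of 0.05 with human ERFE, with mouse ERFE, between the proteins, or with both proteins against untreated cells (limma, over all 10891 genes). Over all genes, 0.248% passed with human ERFE, 0.220% with mouse ERFE, 0.00918% between the proteins and 0.459% with both. At an unadjusted p under 0.05 there were 5 of 43 members with human ERFE (11.6%, against 6.98% of all genes). RB1 was the higher one of these (2.33%, against 4.03%), and AURKB, CDKN1A, CDKN1C and MCM3 were lower (9.30%, against 2.95%). With mouse ERFE there were 7 of 43 (16.3%, against 11.5%), with CDKN2B and RRM2 higher (4.65%, against 4.91%) and CDKN1A, FOXM1, MCM2, MCM3 and MCM5 lower (11.6%, against 6.61%). With both proteins there were 8 of 43 (18.6%, against 10.5%), of which RB1 and RRM2 were higher (4.65%, against 5.32%) and 6 were lower (14.0%, against 5.17%). These comparisons share the 4 untreated arrays, so they are not independent of each other. The median log2 fold change of the members was -0.01 with human ERFE and -0.03 with mouse ERFE, beside 0.01 and 0.00 over all genes. A positive log2 fold change was found for 19 of 43 members with human ERFE (44.2%, against 51.6% of all genes), for 17 with mouse ERFE (39.5%, against 49.2%) and for 17 with both proteins (39.5%, against 49.9%).

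The size of change that these arrays allow for was small for most members, as it was for most genes. The 95% confidence interval of the log2 fold change lay within 0.5 on both sides of 0 for 36 of 43 members with human ERFE (83.7%, against 74.5% of all genes) and for 33 with mouse ERFE (76.7%, against 71.5%), and for 36 with both proteins (83.7%, against 81.8%). For comparison, the intervals of ID1 ran from -0.96 to -0.55 with human ERFE and from -0.86 to -0.45 with mouse ERFE. Members varied less between arrays than most genes did: the residual SD had a median of 0.13 over the members and 0.17 over all genes. The members and all genes were not matched for signal level here. The values of a member spanned under 0.5 log2 units over the 12 arrays for 28 of 43 members (65.1%), against 36.8% of all genes. CDK4 and MCM3 had the smallest residual SD of the members (0.05 each) and CDKN1A the highest (0.59), followed by E2F1 and MYBL2 (0.41 each) and RRM2 (0.36).

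**Figure D1:**
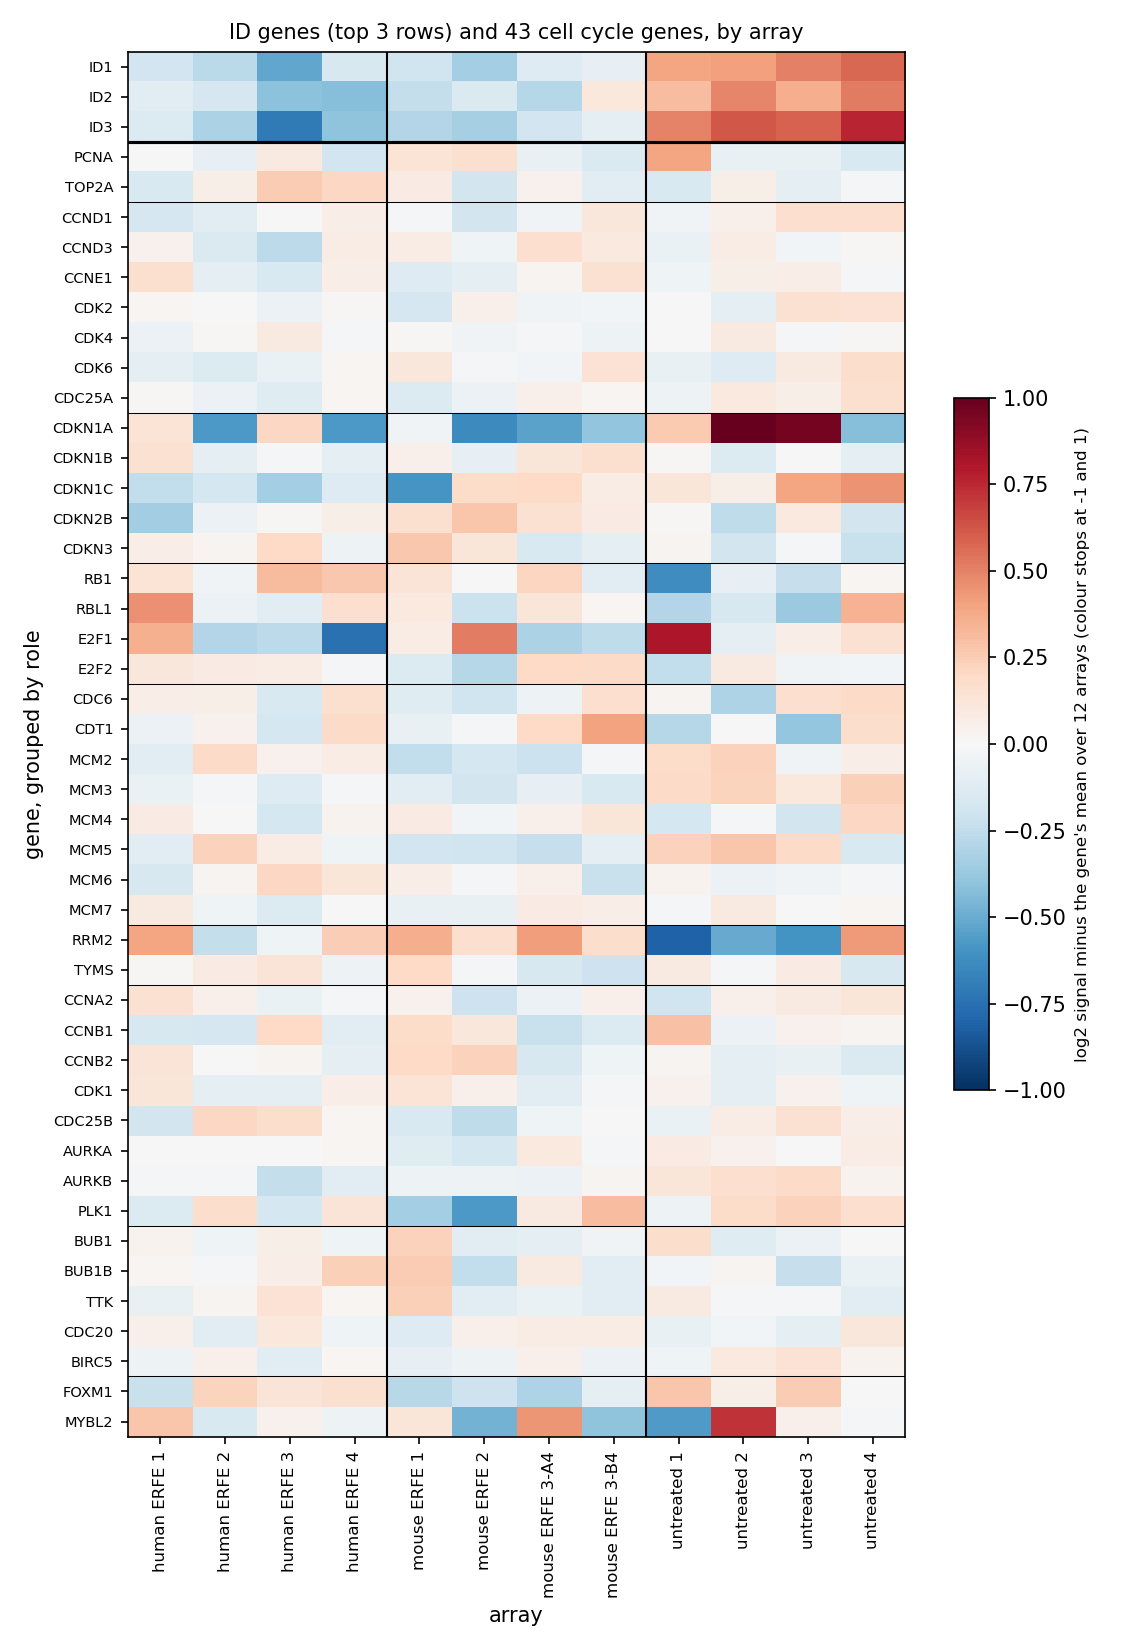
Each row is a gene and each column an array, with human ERFE at the left, mouse ERFE in the middle and untreated at the right, and the colour gives the log2 signal minus the gene's mean over the 12 arrays. The 3 ID rows at the top change colour between the ERFE and the untreated arrays, whereas the rows of the 43 cell cycle genes below the thick line stay pale except for single arrays and genes such as CDKN1A, RRM2 and E2F1.

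Array by array, the mean of the ID genes and the level of the cell cycle genes were set side by side. The mean deviation of ID1 to ID3 from their overall mean was -0.54 to -0.15 on human ERFE arrays, -0.27 to -0.02 on mouse ERFE arrays and 0.40 to 0.62 on untreated arrays. The median deviation of the 43 members was -0.02 to 0.02, -0.06 to 0.04 and 0.00 to 0.04 on these arrays. The groups did not overlap between ERFE and untreated arrays for the ID genes and overlapped for the members' median. These measures are unlike: a mean of 3 genes that fell together, and a median of 43 genes that include inhibitors of the cycle such as CDKN1A and RB1. Such a median can stay near 0 while single members differ, so it does not show that no member went with the ID genes.

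**Figure D2:**
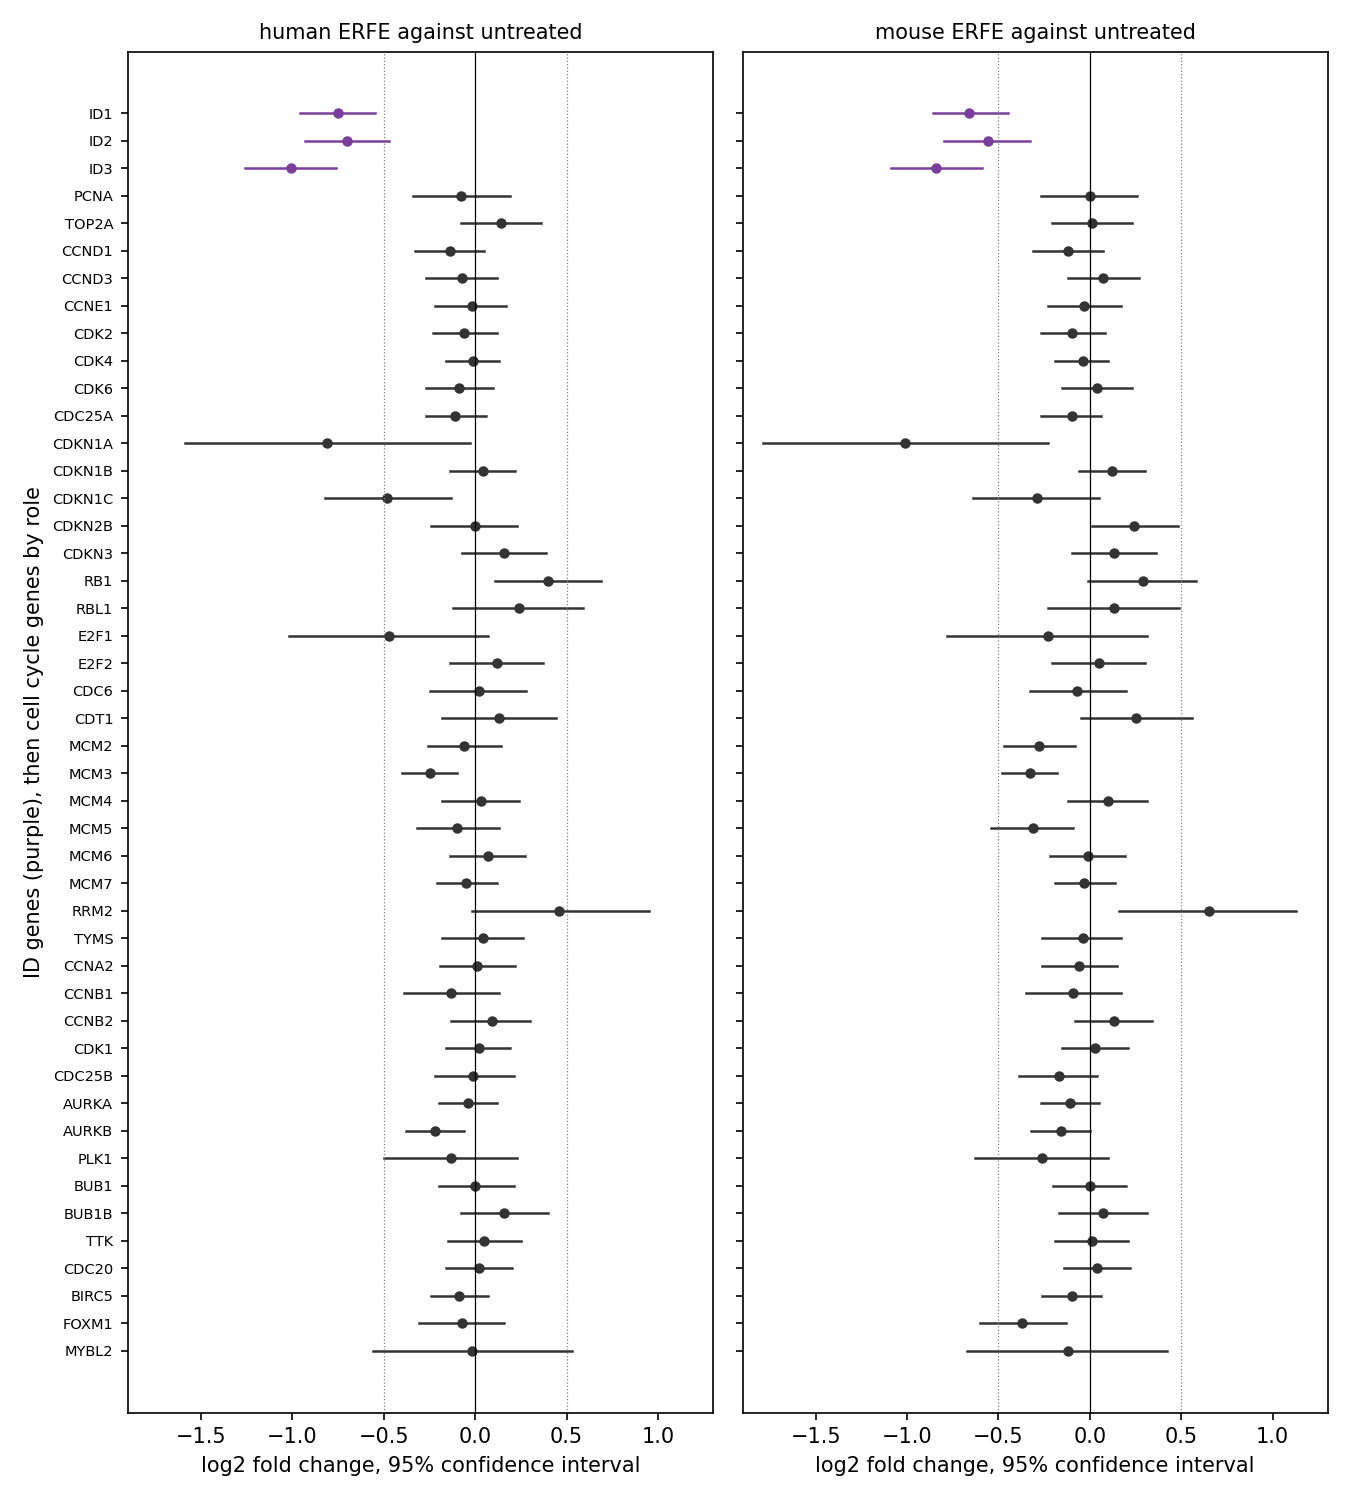
Points give the log2 fold change against untreated cells and bars its 95% confidence interval (limma, 4 arrays per group), with human ERFE at the left and mouse ERFE at the right. The ID genes (purple) lie at -0.56 or below, most cell cycle genes lie near 0 inside the dotted lines at -0.5 and 0.5, and the widest bars belong to CDKN1A, E2F1, MYBL2 and RRM2.

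Among the proliferation markers, PCNA, the sliding clamp of DNA polymerase, had 12.11, 12.03, 12.20 and 11.92 on human ERFE arrays, 12.25, 12.27, 12.04 and 11.97 on mouse ERFE arrays, and 12.51, 12.04, 12.04 and 11.96 on untreated arrays. The groups overlapped, and the highest value was that of untreated replicate 1. Its log2 fold change was -0.08 ± 0.12 with human ERFE and 0.00 ± 0.12 with mouse ERFE (SE). A second, dimmer probe of PCNA gave 0.33 and 0.52 (unadjusted p = 0.169 and 0.0410, limma over probes), so its 2 probes disagree. TOP2A, the topoisomerase that untangles replicated chromosomes, had 11.42, 11.63, 11.83 and 11.78 on human ERFE arrays, 11.66, 11.39, 11.62 and 11.47 on mouse ERFE arrays, and 11.42, 11.63, 11.48 and 11.56 on untreated arrays. Its groups overlapped too, with log2 fold changes of 0.14 ± 0.10 and 0.01 ± 0.10 (SE).

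The G1 cyclins and kinases, which carry cells through the decision to divide, were 7 measured genes of 9 listed. At an unadjusted p under 0.05 there were 0 of 7 in any comparison. Over all genes such a p was found for 6.98% with human ERFE, 11.5% with mouse ERFE, 4.92% between the proteins and 10.5% with both. For 7 genes a count of 0 is near these shares. Cyclin D1 (CCND1) had 11.30, 11.35, 11.46 and 11.53 on human ERFE arrays, 11.45, 11.28, 11.43 and 11.58 on mouse ERFE arrays, and 11.43, 11.52, 11.63 and 11.63 on untreated arrays. Its groups overlapped, and its log2 fold changes of -0.14 ± 0.09 and -0.12 ± 0.09 (SE) had the smallest p of this role (limma, adjusted p = 0.806 and 0.672). The 7 genes ranged from -0.14 to -0.01 with human ERFE and from -0.12 to 0.07 with mouse ERFE. CDK4, the kinase partner of the D-type cyclins, was at -0.01 and -0.04. CDC25A, a phosphatase that activates CDK2, was at -0.11 and -0.10.

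The CDK inhibitors varied more. CDKN1A, the gene of p21 and a p53 target, had 8.74, 8.03, 8.81 and 8.03 on human ERFE arrays, 8.57, 7.97, 8.07 and 8.21 on mouse ERFE arrays, and 8.87, 10.24, 9.56 and 8.18 on untreated arrays. Untreated replicates 2 and 3 were high, and untreated replicate 4 lay within the range of the ERFE arrays. CDKN1A had a log2 fold change of -0.81 with human ERFE (95% interval -1.59 to -0.03, limma, adjusted p = 0.688) and -1.01 with mouse ERFE (-1.79 to -0.23, adjusted p = 0.298).

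The level of CDKN1A moved with the MHC class II level of the arrays. Among the 6 arrays high in MHC class II transcripts, CDKN1A was 8.74 and 8.81 on human ERFE, 8.57 on mouse ERFE, and 8.87, 10.24 and 9.56 on untreated arrays. Among the other arrays it was 8.03 and 8.03 on human ERFE, 7.97, 8.07 and 8.21 on mouse ERFE, and 8.18 on untreated. With that level added to the model, the log2 fold changes were -0.52 with human ERFE and -0.63 with mouse ERFE. Without the 6 high arrays, which leaves untreated replicate 4 alone in its group (here and below), they were -0.15 and -0.10. Without untreated replicate 4, the untreated array low in MHC class II transcripts, they were -1.15 and -1.35, and both proteins together against untreated then gave -1.25 (limma, adjusted p = 0.0477, against 0.0477 to 1.00 over the alternatives). The part of the MHC class II level in the CDKN1A difference was not tested beyond these values.

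CDKN1C, the gene of p57, had 6.54, 6.61, 6.45 and 6.66 on human ERFE arrays, 6.20, 6.97, 6.99 and 6.86 on mouse ERFE arrays, and 6.91, 6.85, 7.18 and 7.24 on untreated arrays. Each human ERFE array lay below each untreated array, whereas mouse ERFE and untreated arrays overlapped and mouse ERFE replicate 1 was the lowest of all. For CDKN1C the log2 fold change was -0.48 with human ERFE (limma, unadjusted p = 0.0105, adjusted p = 0.515) and -0.29 with mouse ERFE (adjusted p = 0.537). Without background correction the human ERFE value was -0.22, against -0.60 to -0.37 in the other alternatives.

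CDKN2B, the gene of p15 and an inhibitor of CDK4 and CDK6, had 8.28, 8.57, 8.64 and 8.69 on human ERFE arrays, 8.79, 8.91, 8.78 and 8.71 on mouse ERFE arrays, and 8.64, 8.38, 8.73 and 8.45 on untreated arrays. All human ERFE values lay below all mouse ERFE values, while untreated replicate 3 was above the lowest mouse ERFE value. CDKN2B had a log2 fold change of 0.00 with human ERFE and 0.24 with mouse ERFE (limma, adjusted p = 0.996 and 0.411). A second probe gave 0.29 and 0.52, and on it the mouse ERFE and untreated arrays did not overlap (limma over probes, adjusted p = 0.154 for mouse ERFE).

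CDKN1B, the gene of p27, had 9.86, 9.62, 9.69 and 9.62 on human ERFE arrays, 9.76, 9.63, 9.83 and 9.87 on mouse ERFE arrays, and 9.72, 9.57, 9.71 and 9.62 on untreated arrays. CDKN3, a phosphatase that acts on CDK2, had 11.30, 11.26, 11.43 and 11.18 on human ERFE arrays, 11.50, 11.35, 11.08 and 11.13 on mouse ERFE arrays, and 11.26, 11.05, 11.22 and 11.01 on untreated arrays. The groups overlapped for both genes. The log2 fold changes of CDKN1B were 0.04 and 0.12, and those of CDKN3 were 0.16 and 0.13, for human and mouse ERFE in that order. A second CDKN1B probe gave -0.23 with human ERFE, the opposite direction, and 0.06 with mouse ERFE (limma over probes, adjusted p = 0.798 and 0.933).

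Of the RB and E2F genes, RB1 had 6.95, 6.78, 7.13 and 7.08 on human ERFE arrays, 6.94, 6.81, 7.03 and 6.71 on mouse ERFE arrays, and 6.19, 6.73, 6.58 and 6.83 on untreated arrays. The ERFE arrays lay mostly above the untreated ones, with an overlap that came from untreated replicate 4 for human ERFE. For RB1 the log2 fold change was 0.40 with human ERFE (limma, unadjusted p = 0.0115, adjusted p = 0.526) and 0.29 with mouse ERFE (adjusted p = 0.447), and without the 6 arrays high in MHC class II it was 0.10 and 0.02. E2F1, an activator of replication genes, was at -0.47 and -0.23 with wide intervals (-1.02 to 0.07 and -0.78 to 0.31). RBL1, the gene of the RB relative p107, was at 0.24 and 0.13, and E2F2 at 0.12 and 0.05.

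The licensing genes held the members nearest to the threshold. MCM3, a subunit of the replicative helicase, had 12.58, 12.63, 12.52 and 12.63 on human ERFE arrays, 12.53, 12.46, 12.56 and 12.49 on mouse ERFE arrays, and 12.84, 12.87, 12.75 and 12.88 on untreated arrays. The 8 ERFE arrays lay below the 4 untreated arrays without overlap. The log2 fold change was -0.25 ± 0.07 with human ERFE (limma, unadjusted p = 0.00293, adjusted p = 0.325) and -0.33 ± 0.07 with mouse ERFE (SE, unadjusted p = 0.000341, adjusted p = 0.0693). On the linear scale these are 0.842 and 0.796 times the untreated level (95% intervals 0.760 to 0.932 and 0.719 to 0.881).

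A second MCM3 probe had 10.65, 10.90, 10.81 and 10.82 on human ERFE arrays, 10.72, 10.68, 10.71 and 10.58 on mouse ERFE arrays, and 11.16, 11.03, 11.09 and 10.90 on untreated arrays. Its ERFE arrays also lay at or below the lowest untreated array, with human ERFE replicate 2 and untreated replicate 4 equal to 2 decimals, and its log2 fold changes were -0.25 and -0.37 (limma over probes, adjusted p = 0.501 and 0.117). For both proteins together against untreated cells, the main probe gave -0.29 ± 0.06 (SE, limma, adjusted p = 0.0588). Over the processing alternatives MCM3 stayed between -0.28 and -0.20 with human ERFE and between -0.39 and -0.31 with mouse ERFE. With mouse ERFE it passed the threshold in 3 of 26 alternatives, with adjusted p from 0.00801 to 1.00 over all of them. With the MHC class II level in the model it was at -0.26 and -0.34. Without the 6 high arrays, which leaves untreated replicate 4 alone in its group, it was at -0.26 and -0.38.

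MCM2 had 11.01, 11.31, 11.16 and 11.19 on human ERFE arrays, 10.87, 10.94, 10.90 and 11.10 on mouse ERFE arrays, and 11.30, 11.35, 11.08 and 11.18 on untreated arrays. MCM5 had 10.11, 10.45, 10.29 and 10.18 on human ERFE arrays, 10.03, 10.02, 9.99 and 10.13 on mouse ERFE arrays, and 10.45, 10.50, 10.41 and 10.07 on untreated arrays. The mouse ERFE arrays were low for both genes and overlapped the untreated range at its lower end, and the human ERFE arrays lay within or close to that range. With mouse ERFE the log2 fold changes were -0.28 for MCM2 and -0.31 for MCM5 (limma, unadjusted p = 0.0102 and 0.0104, adjusted p = 0.263 and 0.266), beside -0.06 and -0.10 with human ERFE. Without the 6 arrays high in MHC class II the mouse ERFE values were -0.20 and -0.03.

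The helicase subunits did not move as a block. With mouse ERFE the log2 fold changes of MCM4, MCM6 and MCM7 were 0.10, -0.01 and -0.03, and with human ERFE they were 0.03, 0.07 and -0.05. A dim second probe of MCM7, detected on 5 arrays, gave 0.68 with mouse ERFE (limma over probes, adjusted p = 0.256), unlike its bright probe. The origin loaders CDC6 and CDT1 were at 0.02 and 0.13 with human ERFE and at -0.07 and 0.25 with mouse ERFE. Of the 8 licensing genes, MCM3 had an unadjusted p under 0.05 and was lower with human ERFE (2.95% of all genes did so), and MCM2, MCM3 and MCM5 did so with mouse ERFE (6.61% of all genes).

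**Figure D3:**
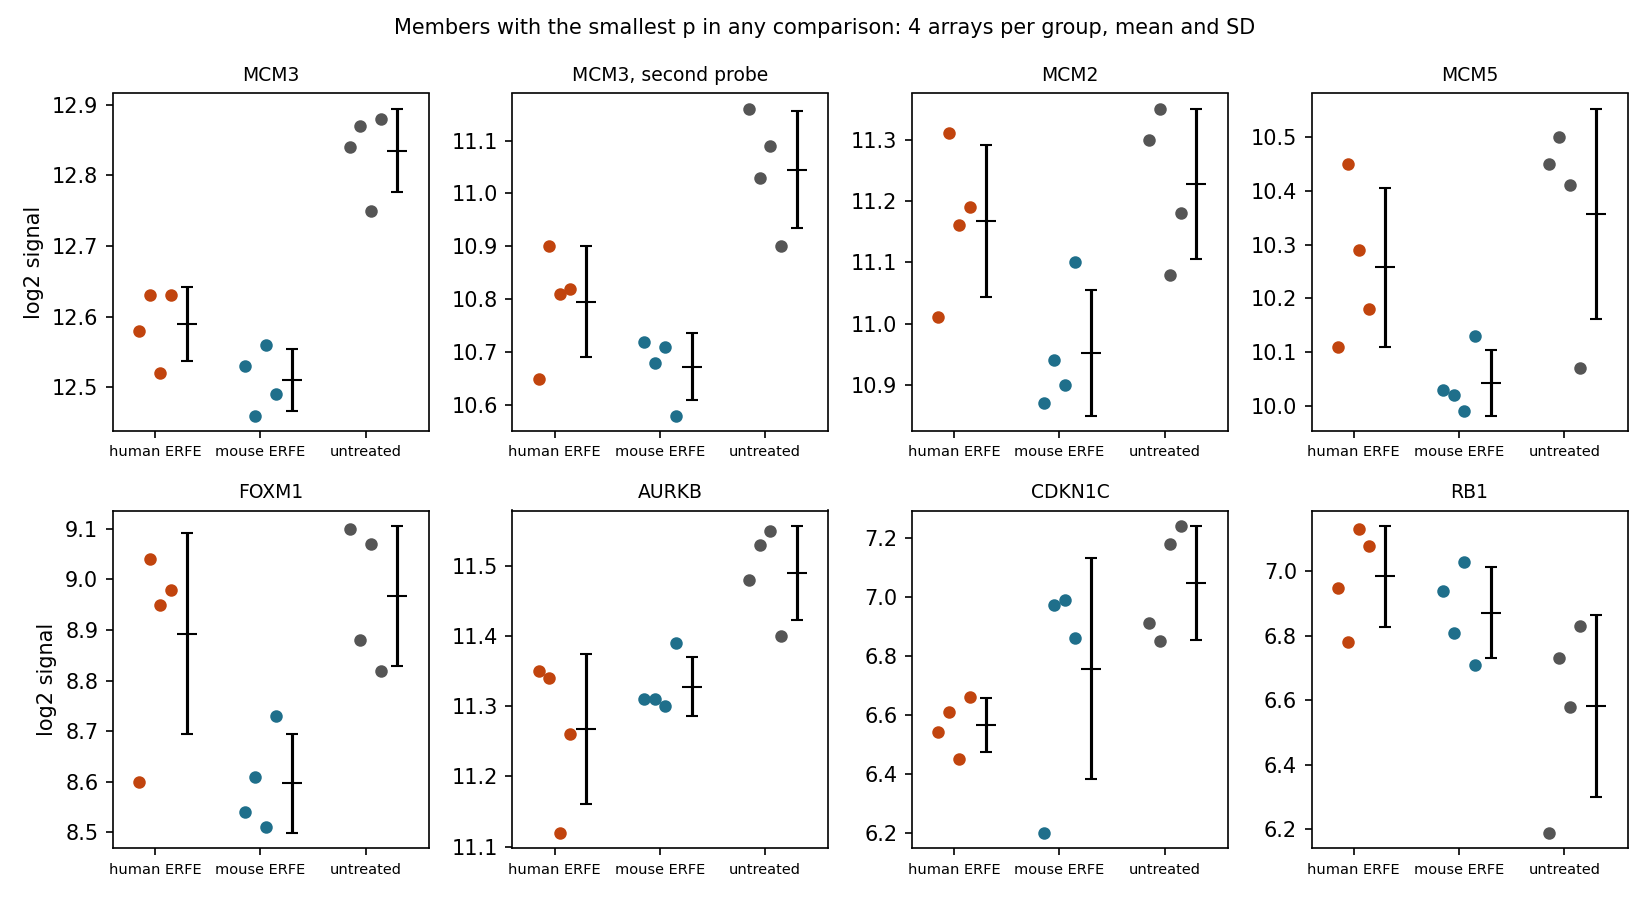
Each panel gives the log2 signal of 1 gene on 4 human ERFE, 4 mouse ERFE and 4 untreated arrays, with the mean and SD of each group beside its points (each panel has its own axis, which does not start at 0). Both MCM3 probes have their ERFE arrays at or below the lowest untreated array, AURKB has a gap of the same direction, and in MCM2, MCM5 and FOXM1 the mouse ERFE points are low while most human ERFE points lie among the untreated ones, with human ERFE replicate 1 below them in MCM2 and FOXM1.

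RRM2, the small subunit of ribonucleotide reductase, which supplies deoxynucleotides in S phase, was described by array after its values were seen. It had 9.76, 9.13, 9.32 and 9.61 on human ERFE arrays, 9.73, 9.53, 9.78 and 9.54 on mouse ERFE arrays, and 8.56, 8.86, 8.77 and 9.79 on untreated arrays. Untreated replicates 1, 2 and 3 were below every ERFE array and untreated replicate 4 was above every ERFE array. For RRM2 the log2 fold change was 0.46 ± 0.22 with human ERFE and 0.65 ± 0.22 with mouse ERFE (SE, limma, adjusted p = 0.714 and 0.284). Without untreated replicate 4 these became 0.73 and 0.91, of which the mouse ERFE value passed the threshold (limma, adjusted p = 0.0147, against 0.0147 to 1.00 over the alternatives). Without the 6 arrays high in MHC class II, which leaves untreated replicate 4 alone in its group, they were -0.41 and -0.17. The part of the MHC class II level in this difference was not tested, and with that level in the model the values were 0.36 and 0.51. TYMS, thymidylate synthase, was at 0.04 and -0.04.

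**Figure D4:**
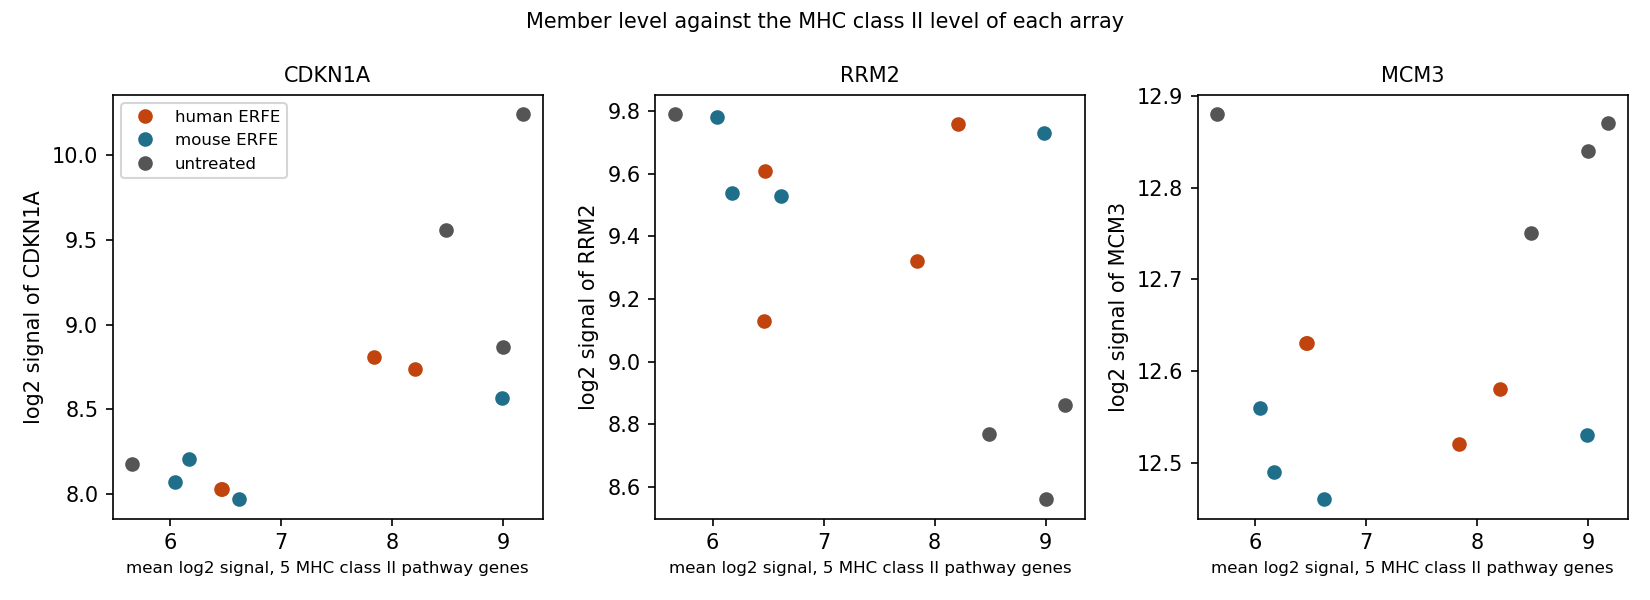
Each point is an array, placed by the mean log2 signal of 5 MHC class II pathway genes and by the log2 signal of CDKN1A, RRM2 or MCM3 (human ERFE, mouse ERFE and untreated by colour, with human ERFE replicates 2 and 4 on top of each other for CDKN1A and MCM3). CDKN1A is higher on the arrays high in MHC class II, and RRM2 is low on the 3 untreated arrays high in it. MCM3 is higher on untreated than on ERFE arrays at either level, but untreated replicate 4 is the only untreated array at the low level.

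The mitotic cyclins, kinases and phosphatase were 8 genes, of which AURKB was nearest to the threshold. AURKB, the kinase of the chromosomal passenger complex, had 11.35, 11.34, 11.12 and 11.26 on human ERFE arrays, 11.31, 11.31, 11.30 and 11.39 on mouse ERFE arrays, and 11.48, 11.53, 11.55 and 11.40 on untreated arrays. All ERFE arrays lay below all untreated arrays, by as little as 0.01 between mouse ERFE replicate 3-B4 and untreated replicate 4. AURKB had a log2 fold change of -0.22 ± 0.07 with human ERFE and -0.16 ± 0.07 with mouse ERFE (SE, limma, adjusted p = 0.520 and 0.445), and without the 6 arrays high in MHC class II it was -0.10 and -0.07. The 8 genes ranged from -0.22 to 0.09 with human ERFE and from -0.26 (PLK1, a kinase of mitotic entry) to 0.13 (CCNB2, cyclin B2) with mouse ERFE. CDK1, the kinase that starts mitosis, was at 0.02 and 0.03, and cyclin B1 (CCNB1) at -0.13 and -0.09.

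The spindle checkpoint and exit genes stayed close to 0. BUB1, BUB1B, TTK, CDC20 and BIRC5 ranged from -0.09 to 0.16 with human ERFE and from -0.10 to 0.07 with mouse ERFE. Of these, 0 of 5 had an unadjusted p under 0.05, which for 5 genes is near the share of all genes (6.98% and 11.5%). BUB1, a checkpoint kinase, was at 0.00 in both, with intervals of -0.20 to 0.21 and -0.20 to 0.20. CDC20, the activator of the anaphase-promoting complex, was at 0.02 and 0.04.

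FOXM1, the transcription factor of late cell cycle genes, had 8.60, 9.04, 8.95 and 8.98 on human ERFE arrays, 8.54, 8.61, 8.51 and 8.73 on mouse ERFE arrays, and 9.10, 8.88, 9.07 and 8.82 on untreated arrays. All mouse ERFE arrays lay below all untreated arrays, and of the human ERFE arrays replicate 1 was at the mouse ERFE level. The log2 fold change was -0.37 ± 0.11 with mouse ERFE (SE, limma, unadjusted p = 0.00526, adjusted p = 0.212) and -0.07 ± 0.11 with human ERFE. A second FOXM1 probe gave -0.15 and -0.05 with overlapping groups. Without the 6 arrays high in MHC class II the mouse ERFE value was -0.20. MYBL2 was at -0.02 with human ERFE and -0.12 with mouse ERFE, with the wide intervals of a dim probe (-0.56 to 0.53 and -0.67 to 0.42).

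Counted over the roles, groups that did not overlap were found for AURKB, CDKN1C and MCM3 with human ERFE (3 of 43, 6.98%, against 3.99% of all genes) and for AURKB, FOXM1 and MCM3 with mouse ERFE (3 of 43, 6.98%, against 6.94%). All of these were lower in ERFE-treated cells, where lower groups without overlap made up 1.74% of all genes with human ERFE and 4.02% with mouse ERFE. In the comparison of both proteins with untreated cells, AURKB and MCM3 did not overlap (2 of 43, 4.65%, against 1.62% of all genes, or 0.762% that were lower). In these bulk samples, fewer cells in a phase of the cycle and less of a transcript per cell cannot be told apart.

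Between the proteins, 3 of 43 members had an unadjusted p under 0.05 (6.98%, against 4.92% of all genes). FOXM1 and MCM2 were higher with human than with mouse ERFE by 0.29 and 0.22 on the log2 scale (4.65% of members, against 3.11% of all genes). CDKN2B was at -0.25 (2.33%, against 1.81%). None of the 3 passed (limma, adjusted p = 0.903, 0.954 and 0.976 for FOXM1, MCM2 and CDKN2B). CDKN2B was also the member whose human and mouse ERFE arrays did not overlap (1 of 43, 2.33%, against 2.42% of all genes, or 0.826% in that direction). The log2 difference was positive for 25 of 43 members (58.1%, against 54.1%). The 95% interval of the difference lay within 0.5 on both sides of 0 for 37 of 43 members (86.0%, against 76.3% of all genes). It was widest for CDKN1A (-0.58 to 0.98), E2F1 and MYBL2.

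Beyond the members, 127 further measured genes of the cell cycle and of E protein and p53 action were taken from lists, of which 0 passed the threshold in any comparison. At an unadjusted p under 0.05 there were 6 with human ERFE (4.72%) and 15 with mouse ERFE (11.8%), beside the 6.98% and 11.5% of all genes given above. Of 39 measured genes of the replication machinery, 0 had such a p with human ERFE and 5 did with mouse ERFE (1 higher and 4 lower). The lowest p belonged to POLE and POLD1, the catalytic subunits of DNA polymerases epsilon and delta, with log2 fold changes of -0.60 and -0.59 with mouse ERFE (limma, adjusted p = 0.0630 and 0.0860). They were 0.51 and 0.49 higher with human than with mouse ERFE on the log2 scale (limma, adjusted p = 0.810 each).

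Of 43 measured genes of the mitosis machinery, 2 had an unadjusted p under 0.05 with human ERFE (HMMR at 0.27 and NEK2 at -0.23). With mouse ERFE there were 4, led by TPX2 at -0.27 and PKMYT1 at -0.29 (limma, adjusted p = 0.310 and 0.325). Over all genes, 6.98% had such a p with human ERFE and 11.5% with mouse ERFE. Of 26 further regulators of RB, E2F and CDKs, 1 was higher and 1 lower at such a p with human ERFE. With mouse ERFE 1 was higher and 2 were lower. MYC, an activator of growth and cell cycle entry, had the smallest p in both comparisons. It was at -0.35 with human ERFE and -0.45 with mouse ERFE (limma, adjusted p = 0.371 and 0.0902). Next came RBL2 at 0.20 with human ERFE and E2F8 at -0.27 with mouse ERFE (limma, adjusted p = 0.671 and 0.291). The E proteins that ID proteins bind, TCF3, TCF4 and TCF12, ranged from 0.02 to 0.32 with human ERFE and from -0.10 to 0.21 with mouse ERFE, with 0 of 3 at an unadjusted p under 0.05.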

How the data were processed

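Illumina HT-12 v4 arrays of 12 samples in 3 groups of 4 were used, grouped by their titles. The deposited tables hold a linear intensity and a detection p-value for each probe and array, per the file headers and the values. Per the submitters' processing notes, lumi and limma were used, with no role or version, and background handling is not stated there. The table labelled normalized, like the series matrix, equals the raw intensities in 567876 of 567876 values, so nothing normalized by the authors was used. Replicate numbers showed no consistent pairing: deviations of same-numbered samples correlated at -0.32 to 0.33, with 2 of 12 pairs over 0.1. Whether samples were paired is not settled by the labels or by these values. By the number in the title code the correlations were -0.11 to 0.33, with 4 of 9 pairs over 0.1. Their median was 0.03, against -0.04 for other pairs of different groups. The labels do not say what the title codes stand for.

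Signals were background-corrected and quantile-normalized with neqc (limma 3.58.1, R 4.3.3, offset 16, negative controls inferred from detection p). Of 47323 probes, 30113 had 1 gene symbol, 8 several and 17202 none in the platform annotation; symbols matched by Entrez ID for 30074. Probes with detection p under 0.05 on at least 4 arrays were kept, and the probe with the highest mean stood for its gene (12 members had more than 1). One limma model (lmFit, eBayes) took in the 12 arrays with a mean per group, with two-sided tests, with Benjamini-Hochberg adjustment over 10891 genes and a threshold of 0.05. The self-test ran on simulated data. Precision here depends on the number of arrays, since these have no read depth.

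Members, gene lists and tests were chosen with earlier results of these data known. Values by array are given for PCNA, TOP2A, CCND1, the measured CDK inhibitors and the 4 members with the smallest p of each comparison. Genes named from the other lists are among the 2 with the smallest p of a comparison, and not every such gene is named. Alternatives were no background correction, an offset of 50, median centring, other detection filters, the mean of a gene's probes, blocks by replicate or title code, the mean MHC class II signal as a covariate, a robust fit with a trend, averaging the arrays titled replicate 3, only the groups compared, and leaving out arrays. Leaving out the 6 arrays high in MHC class II was added after seeing the data. No genome coordinates come from the arrays; those given are of the RefSeq promoters.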

Additional observations from a re-analysis of the deposited data

Results flagged for a closer look

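Of 54 gene and group combinations examined (18 genes named by array in 3 groups), 3 held an array far from the other arrays of its group by Dixon's criterion, which chance gives in about 1 of 20 groups. PCNA was at 12.51 on untreated replicate 1, with the other untreated arrays between 11.96 and 12.04. CDKN1C was at 6.20 on mouse ERFE replicate 1, with the other mouse ERFE arrays between 6.86 and 6.99. AURKB was at 11.39 on mouse ERFE replicate 3-B4, with the others between 11.30 and 11.31.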

How the results depend on the processing

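The count of members past the threshold was 0 in each comparison. With human ERFE, and between the proteins, it was 0 in all 26 alternatives. With mouse ERFE it was 1, MCM3, without background correction, with detection required on all 12 arrays and with the robust trend (adjusted p = 0.0118, 0.0413 and 0.00801). With both proteins it was 1, MCM3, in those 3, with an offset of 50 (adjusted p = 0.0421) and with probes of a gene averaged (0.0497). Leaving out 1 array gave 0 to 1 members with mouse ERFE and 0 to 2 with both proteins. The highest counts came without untreated replicate 4 (RRM2 with mouse ERFE, CDKN1A and RRM2 with both). Without that array the count over all genes was 52 with human ERFE, 156 with mouse ERFE and 133 with both proteins, against 27, 24 and 50. The replicate block gave 0 members in each comparison, and no pairing by replicate number was found. Over all genes the block gave 13 with human ERFE, 58 with mouse ERFE and 35 with both proteins. Other counts over all genes more than 1.5 times off came with median centring (6, 4 and 7 with human ERFE, mouse ERFE and both), the title number as a block (5, 0 and 18), the title letter as a block (15, 8 and 26), and without the 6 arrays high in MHC class II (0 in each). With human ERFE alone, further such counts were 17 with the MHC class II signal in the model and 13 on the compared groups only. With mouse ERFE alone they were 79 without background correction, 65 with the robust trend, 62 with detection on all 12 arrays, 38 with an offset of 50 and 13 with the arrays titled replicate 3 averaged. Leaving out 1 array gave 11 to 52 with human ERFE, 8 to 156 with mouse ERFE and 21 to 133 with both.

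The members' median was 0.06, -0.10 and 0.17 with median centring (human ERFE, mouse ERFE and human against mouse), which shifts the median of all genes to 0.08, -0.06 and 0.15. Without the 6 arrays high in MHC class II it was -0.04, -0.07 and, with both proteins, -0.06. With the title number as a block it was 0.00 with both proteins. Leaving out 1 array gave 0.00 to 0.04 between the proteins. Without the 6 arrays RRM2 turned to -0.17 with mouse ERFE and -0.29 with both proteins, and MCM5 to 0.11 with both, each with 1 untreated array left, which was assumed to vary like the other groups. The cause was not tested. For the members with an unadjusted p under 0.05 in a comparison, 130 of 130 values with human ERFE, 181 of 182 with mouse ERFE, 78 of 78 between the proteins and 198 of 200 with both kept their direction. Of members named without such a p, RRM2, MCM5, FOXM1 and MCM2 turned to -0.41, 0.24, 0.19 and 0.07 with human ERFE without the 6 arrays. Between the proteins, CDKN1A turned to -0.05 without the 6 arrays. With the title number as a block, CDKN1A turned to -0.15 and RRM2 to 0.08 between the proteins.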

Other observations

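Among 17 measured p53 target genes other than CDKN1A, TP53INP1, a regulator of p53-dependent cell death, was at 0.40 with human ERFE and 0.45 with mouse ERFE on the log2 scale (limma, adjusted p = 0.262 and 0.0928). RRM2B, the p53-induced counterpart of RRM2, was at -0.56 with human ERFE (limma, adjusted p = 0.391). It was also at -0.56 with both proteins together against untreated cells, the lowest of the 17 there. GADD45B, a stress gene, was at -0.58 with mouse ERFE (limma, adjusted p = 0.0630) and was 0.35 higher with human than with mouse ERFE (adjusted p = 0.810). None of the 17 passed the threshold, and 2 had an unadjusted p under 0.05 with human ERFE and 3 with mouse ERFE, where 6.98% and 11.5% of all genes did.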
